A study of Mus musculus with 6 samples.

Results

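The 7 cyclin-dependent kinase inhibitor genes of the mouse (Cdkn1a, Cdkn1b, Cdkn1c, Cdkn2a, Cdkn2b, Cdkn2c and Cdkn2d) were followed in nuclei of brain tissue with Foxr2-driven lesions. They were found by symbol in the gene lists of the deposited matrices, where all 7 were present among 32285 genes. The tissue was profiled as single nuclei with the Multiome assay, which reads RNA and open chromatin (ATAC-seq) from the same nucleus. Every library came from C57BL/6J brain in which plasmids had been electroporated in utero into progenitors of the ganglionic eminence, and all mice received a Foxr2 overexpression transposon. The Foxr2 p53LOF library (1 library) also carried p53 loss of function, made with Cas9 and a guide RNA against Trp53, and the Foxr2 alone libraries (2 libraries) did not. The Foxr2 transposon was driven by the ubiquitous CAG promoter and carried GFP, and electroporation reached only part of the cells, so each library mixes targeted and host cells. A transposon with the luciferase Akaluc and GFP was delivered with it, so GFP and vector DNA do not mark the Foxr2 transposon alone. Counts were analysed for Foxr2 p53LOF replicate 1 and Foxr2 alone replicate 1. With counts of 1 library per genotype analysed there were no replicates and no tests were made, and every difference given here is between or within these libraries.

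Cyclin-dependent kinase inhibitors are the brakes of the cell cycle. The Cip/Kip proteins, p21 (Cdkn1a), p27 (Cdkn1b) and p57 (Cdkn1c), bind complexes of cyclins with their kinases, and p21 is a classical transcriptional target of p53. The Ink4 proteins, p16 (from Cdkn2a), p15 (Cdkn2b), p18 (Cdkn2c) and p19 (Cdkn2d), bind CDK4 and CDK6, and Cdkn2a also encodes Arf from a separate start, a protein that stabilises p53 by holding back Mdm2.

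After filtering and doublet removal, 8413 of 10379 barcodes of Foxr2 p53LOF and 8327 of 10096 of Foxr2 alone were kept, with medians of 5578 and 3632 UMIs per nucleus. The libraries shared 140 barcodes, of which 95 were kept in both. Nuclei were clustered on genes that excluded the inhibitors, and clusters were named from marker genes. OPC denotes oligodendrocyte precursors and COP their committed progeny. Foxr2 p53LOF held 2264 neuron-like, 1526 oligodendrocyte-like, 2107 OPC/COP-like, 1597 immune-like and 105 T cell-like nuclei. Foxr2 alone held 4248 neuron-like, 3024 oligodendrocyte-like, 168 OPC/COP-like, 430 astrocyte-like and 426 immune-like nuclei. Nearly every cluster came from 1 library, so classes, not clusters, were compared. The neuron-like clusters of Foxr2 alone were led by genes such as Penk and Ppp1r1b, Slc17a7, or Sst and Npy, and those of Foxr2 p53LOF by Meg3, Slc17a6 or Slc6a3, so the kind of neuron sampled and the genotype cannot be told apart there. Of the OPC/COP-like nuclei of Foxr2 p53LOF, 1076 lay in cluster 5 and 937 in cluster 7, both led by Hmga2, and 94 in cluster 15. Cluster 15 also held 165 of the 168 OPC/COP-like nuclei of Foxr2 alone. Library ratios of this class thus set mostly Hmga2-led nuclei against nuclei of cluster 15. The kind of nucleus and the genotype cannot be told apart there. Vector DNA was counted by ATAC in 28.4% of the OPC/COP-like nuclei of Foxr2 p53LOF, against 1.13% of immune-like, 0.786% of oligodendrocyte-like and 0.663% of neuron-like nuclei. A further 809 nuclei of Foxr2 p53LOF lay in unnamed clusters, and vector DNA was counted in 15.1% of them. Foxr2 alone replicate 1 had no peak on the vector, so vector DNA could not be counted there, and its OPC/COP-like nuclei had 97.1 CPM of GFP RNA from 43 UMIs. Trp53 RNA itself checks nothing here, since a small edit by Cas9 need not remove the 3′ end that the assay reads. In OPC/COP-like nuclei it stood at 53.4 UMIs per 1000000 (CPM) in the p53LOF library and at 22.6 CPM in the other.

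RNA levels are in CPM, where a gene's UMIs are scaled to 1000000 UMIs of its class, and the exact 95% Poisson interval stands in brackets. These intervals cover counting error only. Levels of different genes were not compared. Log2 ratios between the libraries have Foxr2 p53LOF as the numerator, and their median across all genes was -0.05 in neuron-like, -0.06 in oligodendrocyte-like, 0.03 in OPC/COP-like and -0.16 in immune-like nuclei.

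Cdkn1a (chr17:29090976-29100727, plus strand, mm10) encodes p21. It overlaps the antisense gene AC167363.2. It has 3 annotated protein-coding starts, and the windows around the first and the second are shown because the first holds a p53 response element and the second holds the accessible promoter. In the GRCm38.p6 sequence from RefSeq, 250 bases before to 50 bases after each start, capitals mark the element.
Cdkn1a, first start, chr17:29090729-29091028, plus strand: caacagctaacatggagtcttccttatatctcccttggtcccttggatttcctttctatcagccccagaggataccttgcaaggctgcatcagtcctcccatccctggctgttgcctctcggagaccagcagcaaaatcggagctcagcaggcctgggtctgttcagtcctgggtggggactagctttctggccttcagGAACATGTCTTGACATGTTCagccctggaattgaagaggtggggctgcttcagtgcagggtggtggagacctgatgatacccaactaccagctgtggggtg
Cdkn1a, second start, chr17:29093519-29093818, plus strand: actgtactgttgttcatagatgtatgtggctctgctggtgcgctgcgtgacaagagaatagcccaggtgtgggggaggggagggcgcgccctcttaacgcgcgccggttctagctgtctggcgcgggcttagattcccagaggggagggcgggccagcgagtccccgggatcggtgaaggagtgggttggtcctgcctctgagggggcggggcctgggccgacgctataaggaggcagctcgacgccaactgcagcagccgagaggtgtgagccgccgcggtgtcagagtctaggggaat

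The element, a pair of adjoining p53 half-sites with at most 1 base differing, was searched on both strands (the half-site pattern is its own reverse complement) and began 51 bases before the first start. It occurred in 29 of 32841 promoter windows of the same length (0.0883%) and in none of the other 8 windows found for the inhibitors. A match is a run of letters and not evidence of binding.

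Cdkn1a RNA was lower in Foxr2 p53LOF in every class compared. In oligodendrocyte-like nuclei it measured 20.1 CPM (16.0 to 24.97) in Foxr2 p53LOF from 82 UMIs, and 523 CPM (500.4 to 546) in Foxr2 alone from 2058 UMIs. That is a 26.0-fold difference, with a counting interval of 20.8 to 32.8. In OPC/COP-like nuclei the levels were 17.0 CPM (15.3 to 18.9) and 174 CPM (137 to 217), a log2 ratio of -3.35 (-3.71 to -2.98). Immune-like nuclei had 29.2 CPM (24.9 to 34.1) against 93.2 CPM (70.0 to 122), a log2 ratio of -1.67 (-2.13 to -1.20). Thinned to 1000 UMIs per nucleus, the immune-like log2 ratio was -0.66 (-1.54 to 0.31), which is within counting error. With doublets kept it was -2.53 (-2.88 to -2.17). Neuron-like nuclei had the lowest levels in both libraries, 3.08 CPM (2.44 to 3.85) against 14.0 CPM (12.8 to 15.4), a log2 ratio of -2.19 (-2.55 to -1.84). In none of these classes did the intervals of the libraries overlap. At 2-fold or more, a lower limit than the differences just given, and 10 CPM or more in 1 library, 20.6% of all genes were lower in Foxr2 p53LOF in oligodendrocyte-like nuclei, 23.5% in OPC/COP-like, 23.3% in immune-like and 19% in neuron-like nuclei. In Foxr2 p53LOF, vector DNA was counted in only 0.786% of oligodendrocyte-like, 1.13% of immune-like and 0.663% of neuron-like nuclei. With 1 library per genotype, an effect of p53 loss cannot be told apart from other differences between the libraries.

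The Cdkn1a signal in Foxr2 alone was spread over many oligodendrocyte-like nuclei. After each nucleus was thinned to 1000 UMIs, 37.8% (35.7 to 39.9) of 2108 such nuclei held a Cdkn1a UMI, against 1.98% (1.34 to 2.82) of 1512 in Foxr2 p53LOF. The unthinned shares were 45.3% and 5.05%. Neuron-like nuclei of Foxr2 alone, at 1.35% thinned, mark the low end within the same library. The order of the classes in Foxr2 alone ran from oligodendrocyte-like through OPC/COP-like to immune-like, astrocyte-like (84.8 CPM, 70.9 to 100.6) and neuron-like, with overlap between immune-like and astrocyte-like alone. In Foxr2 p53LOF the order ran from immune-like through oligodendrocyte-like, OPC/COP-like and T cell-like to neuron-like, and the intervals of all neighbours overlapped. The summed level of the 8 oligodendrocyte markers was 17223 CPM in the oligodendrocyte-like nuclei of Foxr2 alone and 23330 CPM in those of Foxr2 p53LOF. In the same order, neuron markers of neuron-like nuclei summed to 13578 and 21544.5 CPM. OPC markers of OPC/COP-like nuclei summed to 10554.5 and 5308 CPM, and immune markers of immune-like nuclei to 10141 and 8163 CPM. The direction of the marker difference between the libraries thus varied with the class. Whether the make-up of the classes bears on the Cdkn1a differences was not tested.

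Within Foxr2 p53LOF, Cdkn1a differed between the Hmga2-led clusters. Cluster 7 had 28.2 CPM (25.1 to 31.7) and cluster 5 had 5.40 CPM (4.06 to 7.04), a 5.23-fold difference (3.90 to 7.13). At 2-fold or more, 9.4% of all genes were higher and 9.85% lower in cluster 7. The highest Cdkn1a levels of that library lay in immune-like clusters, 115 CPM (74.3 to 169) in cluster 4.7, led by the neutrophil genes S100a8 and S100a9, and 67.7 CPM (49.2 to 90.9) in cluster 4.1, led by Lilr4b and Mmp12. Both of these have intervals above those of clusters 5 and 7.

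**Figure D1:**
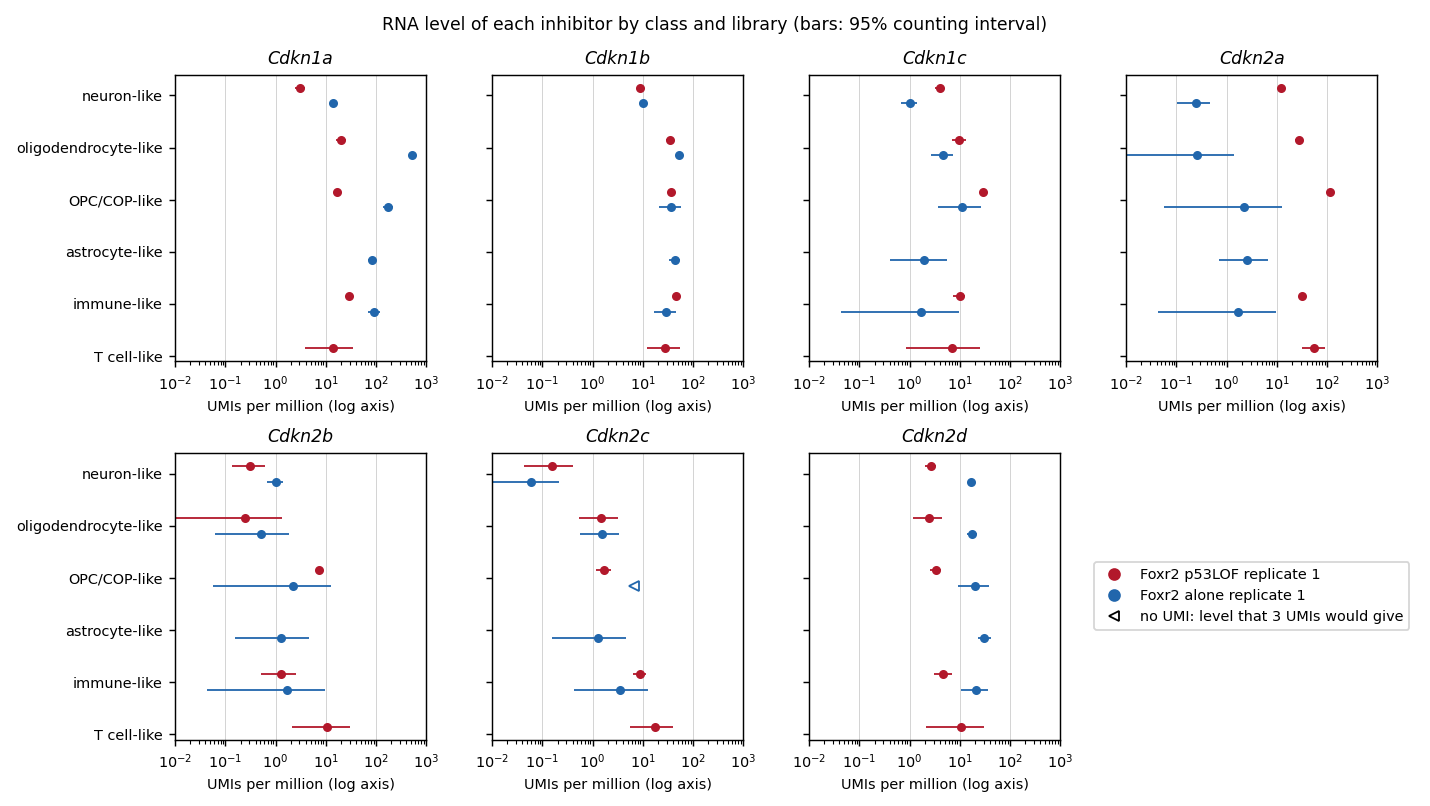
RNA level of each inhibitor in CPM (x axis, log scale) in each class (y axis), with red points for Foxr2 p53LOF replicate 1 and blue points for Foxr2 alone replicate 1; bars are 95% counting intervals and a triangle marks a class without a UMI. Cdkn1a and Cdkn2d lie to the left in Foxr2 p53LOF in each class that both libraries hold, and Cdkn2a lies to the right.

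Open chromatin at Cdkn1a was read at the second start (position 29093769), where all 3 libraries had a peak. No library had a peak within 1000 bases of the first start, whose window holds the p53 response element, nor of the third. ATAC signal is given as FPM, fragments per 1000000 fragments of the class in peaks. Across all promoters the median log2 ratio between the libraries was 0.35 in neuron-like, -0.14 in oligodendrocyte-like, -0.26 in OPC/COP-like and -0.17 in immune-like nuclei. Fragments in peaks within 1000 bases of the second start were 30.1 FPM (24.99 to 35.9) in oligodendrocyte-like nuclei of Foxr2 p53LOF and 147 FPM (140 to 155) in Foxr2 alone. OPC/COP-like nuclei had 16.2 and 98.0 FPM, immune-like 32.4 and 78.5, and neuron-like 14.1 and 25.5. By this count 1.44% of all promoters with at least 10 FPM were lower by 2-fold or more in oligodendrocyte-like, 6.04% in OPC/COP-like, 2.73% in immune-like and 1.22% in neuron-like nuclei. Part of this lay in a further peak, 560 to 1167 bases after the start, that was called in Foxr2 alone replicate 1 only. With the peak over the start alone, the log2 ratios were -0.99 (-1.29 to -0.71) in oligodendrocyte-like, -1.62 (-2.13 to -1.06) in OPC/COP-like, -0.38 (-0.66 to -0.11) in neuron-like and -0.30 (-0.73 to 0.14) in immune-like nuclei. The last of these is within counting error. With peaks within 2500 bases they were -0.13 (-0.26 to 0.0038) in neuron-like nuclei, also within counting error, -1.63 in oligodendrocyte-like and -1.40 in OPC/COP-like nuclei, against -0.85, -2.29 and -2.60 with 1000 bases. Within Foxr2 p53LOF, cluster 7 had 20.9 FPM (17.5 to 24.7) and cluster 5 had 10.7 (8.28 to 13.7), the same order as the RNA.

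Cdkn2a (chr4:89274471-89294653, minus strand, mm10) encodes Ink4a (p16) and Arf from separate first exons that share a 3′ end, so UMIs cannot tell the transcripts apart, while ATAC reads each start on its own. The windows around both starts are shown in the same form, from RefSeq and 5′ to 3′ on the gene's strand. Capitals mark TTTNNCGC, a core of the motif of E2F factors, the transcription factors that Rb holds back.
Cdkn2a, Arf start, chr4:89294570-89294869, minus strand: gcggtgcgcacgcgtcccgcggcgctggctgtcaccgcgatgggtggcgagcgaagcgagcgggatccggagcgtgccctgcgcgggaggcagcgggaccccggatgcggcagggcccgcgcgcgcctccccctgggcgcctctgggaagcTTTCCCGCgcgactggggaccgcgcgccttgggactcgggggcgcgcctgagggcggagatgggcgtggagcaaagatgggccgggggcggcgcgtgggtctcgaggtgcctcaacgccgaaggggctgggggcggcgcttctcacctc
Cdkn2a, Ink4a start, chr4:89282143-89282442, minus strand: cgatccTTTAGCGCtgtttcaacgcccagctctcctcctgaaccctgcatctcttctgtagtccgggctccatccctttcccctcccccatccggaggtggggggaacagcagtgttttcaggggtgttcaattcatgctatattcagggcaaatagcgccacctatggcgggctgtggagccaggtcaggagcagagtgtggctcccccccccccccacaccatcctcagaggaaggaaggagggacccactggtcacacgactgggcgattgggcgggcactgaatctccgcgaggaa

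TTTNNCGC, searched on both strands, occurred once in each of these windows and in none of the other 7 windows found for the inhibitors, against 5.17% of all windows. The Arf window also held GGGCGG, the GC box, at 3 places and the Ink4a window at 1, and 35.7% of all windows held it.

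Cdkn2a RNA was present in Foxr2 p53LOF and close to absent in Foxr2 alone. OPC/COP-like nuclei of Foxr2 p53LOF held 2355 UMIs, 113 CPM (109 to 118), and those of Foxr2 alone held 1 UMI, 2.26 CPM (0.0572 to 12.6), a log2 ratio of 5.65 (3.17 to 10.95). The oligodendrocyte-like values were 28.2 CPM (23.3 to 33.9) and 0.254 CPM from 1 UMI, a log2 ratio of 6.80 (4.29 to 12.11). The immune-like values were 32.1 CPM (27.6 to 37.2) and 1.73 CPM from 1 UMI, a log2 ratio of 4.22 (1.72 to 9.53). Neuron-like nuclei had 11.9 CPM (10.6 to 13.4) from 302 UMIs and 0.242 CPM (0.104 to 0.477) from 8 UMIs, a 49.3-fold difference (24.7 to 115). Astrocyte-like nuclei of Foxr2 alone had 2.59 CPM from 4 UMIs. The share of all genes higher by 2-fold or more was 21.7% in OPC/COP-like, 13.2% in oligodendrocyte-like, 15.5% in immune-like and 13.4% in neuron-like nuclei.

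Cdkn2a was read beside the vector GFP in Foxr2 p53LOF. There were 14.95 Cdkn2a UMIs (12.2 to 18.2) per 100 GFP UMIs in oligodendrocyte-like nuclei, 14.8 (12.6 to 17.4) in immune-like, 15.6 (13.8 to 17.7) in neuron-like and 13.1 (7.27 to 22.2) in T cell-like nuclei. OPC/COP-like nuclei had 18.6 (17.8 to 19.4) per 100 GFP UMIs, apart from the intervals of immune-like and neuron-like nuclei and overlapping those of oligodendrocyte-like and T cell-like nuclei. GFP itself stood at 611 CPM in OPC/COP-like nuclei and at 76.4 to 426 CPM in the other named classes.

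Immune cells and T cells do not descend from electroporated neural progenitors, and the share of their nuclei with a Cdkn2a UMI is set beside the other classes. After thinning it was 3.33% (2.49 to 4.34) in immune-like and 6.06% (2.26 to 12.7) in T cell-like nuclei, at median depths of 2606 and 1998 UMIs. Oligodendrocyte-like nuclei (2.65%, 1.90 to 3.58), at a median of 2451.5 UMIs, overlapped both. Neuron-like nuclei (1.502%, 1.04 to 2.09), at a median of 9982 UMIs, lay below both. Because depth differed between the classes, these shares do not tell RNA made by a class from free RNA. OPC/COP-like nuclei reached 10.8% (9.49 to 12.2), at a median of 8128 UMIs, above the immune-like share, while the wide T cell-like interval reached it. The unthinned shares were 51.1% in OPC/COP-like, 9.58% in immune-like and 13.3% in T cell-like nuclei. The part of free RNA in these values, and whether immune cells and T cells made Cdkn2a RNA themselves, was not tested.

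**Figure D2:**
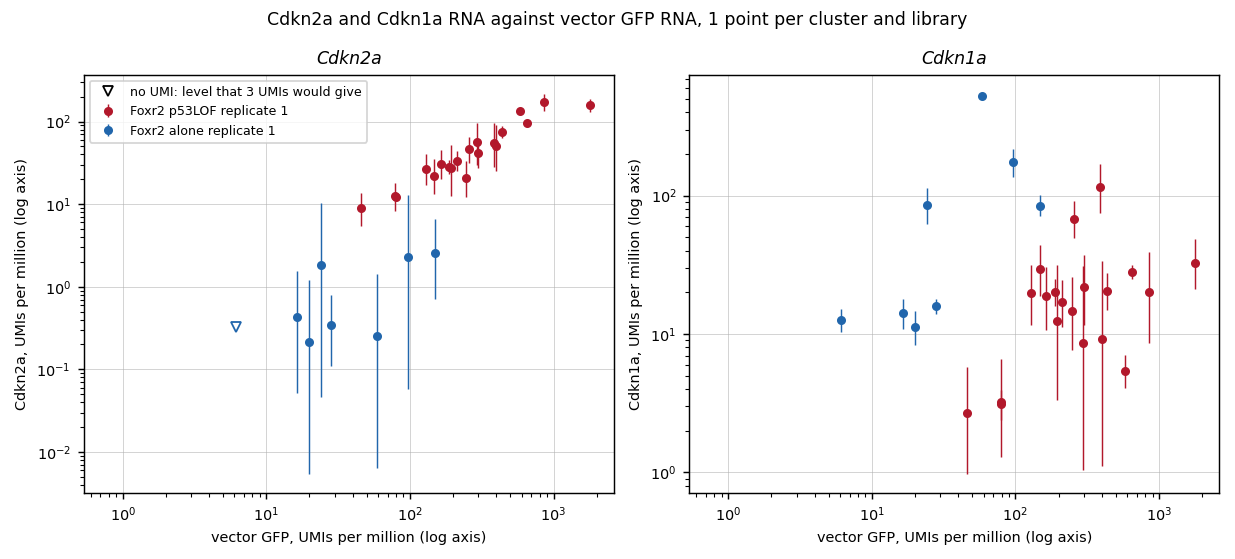
Cdkn2a (left) and Cdkn1a (right) in CPM against vector GFP in CPM, both on log axes, with 1 point per cluster of at least 50 nuclei and library (red for Foxr2 p53LOF, blue for Foxr2 alone); bars are 95% counting intervals. The red points of Cdkn2a are higher where GFP is higher, with exceptions such as cluster 13, the point farthest to the right, at 8.88 Cdkn2a UMIs per 100 GFP UMIs.

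By cluster, Cdkn2a stood at 136 CPM (128 to 143) in cluster 5 and at 94.8 CPM (89.0 to 101) in cluster 7, a log2 ratio of cluster 7 over cluster 5 of -0.52 (-0.64 to -0.40). Its ratio to GFP was 23.3 UMIs per 100 in cluster 5 and 14.5 in cluster 7. Cluster 13 (316 nuclei of Foxr2 p53LOF), unnamed and led by Pomc and Oacyl, had 159 CPM (132 to 190) but 8.88 UMIs per 100 GFP UMIs, with GFP at 1787 CPM. Cluster 16.2 (53 nuclei), unnamed because it carried markers of both astrocytes and immune cells, had 172.5 CPM (134 to 218). The 94 OPC/COP-like nuclei of cluster 15 in Foxr2 p53LOF had 27.8 CPM (12.7 to 52.7) from 9 UMIs, near the oligodendrocyte-like level. Against the 1 UMI of the Foxr2 alone nuclei of the same cluster this was a log2 ratio of 3.60 (0.75 to 9.05), smaller than the 5.65 of the whole class.

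The Ink4a start set OPC/COP-like nuclei of Foxr2 p53LOF further apart than RNA did, and so did the Arf start against oligodendrocyte-like nuclei. At the Ink4a start (position 89282192), OPC/COP-like nuclei had 33.8 FPM (30.7 to 37.1), against 3.45 (1.89 to 5.79) in oligodendrocyte-like, 3.78 (2.31 to 5.84) in immune-like and 1.61 (0.909 to 2.63) in neuron-like nuclei. OPC/COP-like over oligodendrocyte-like, this was 9.78-fold (5.77 to 18.05) for fragments and 4.02-fold (3.33 to 4.89) for RNA. For fragments at the Arf start the same fold was 10.4 (6.73 to 17.1). In Foxr2 alone, each class had 1.20 to 6.57 FPM at the Ink4a start, and OPC/COP-like nuclei had 4.83 (1.17 to 13.1) from 3.5 fragments. The log2 ratio of the libraries at the Ink4a start in OPC/COP-like nuclei was 2.81 (1.35 to 4.86), where 6.62% of all promoters with at least 10 FPM were higher by 2-fold or more. Cluster 5 had 38.4 FPM (33.6 to 43.6), cluster 7 had 30.9 (26.7 to 35.4) and cluster 13 had 25.7 (16.4 to 38.3), while cluster 15 had 1.5 fragments in Foxr2 p53LOF, 5.03 FPM (0.362 to 21.5).

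At the Arf start (position 89294653), OPC/COP-like nuclei had 52.7 FPM (48.8 to 56.8) in Foxr2 p53LOF and 32.4 (20.7 to 48.5) in Foxr2 alone, a log2 ratio of 0.70 (0.11 to 1.36). Within cluster 15 they had 26.8 FPM (11.6 to 52.9) and 32.5 FPM (20.6 to 48.8), which overlap. The Arf start was thus also accessible in OPC/COP-like nuclei of Foxr2 alone, where Cdkn2a RNA was 1 UMI. The other classes of Foxr2 p53LOF ranged from 4.72 to 9.65 FPM at the Arf start. Neuron-like nuclei differed in the opposite direction, with 4.72 (3.45 to 6.30) in Foxr2 p53LOF and 13.6 (12.3 to 14.98) in Foxr2 alone.

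**Figure D3:**
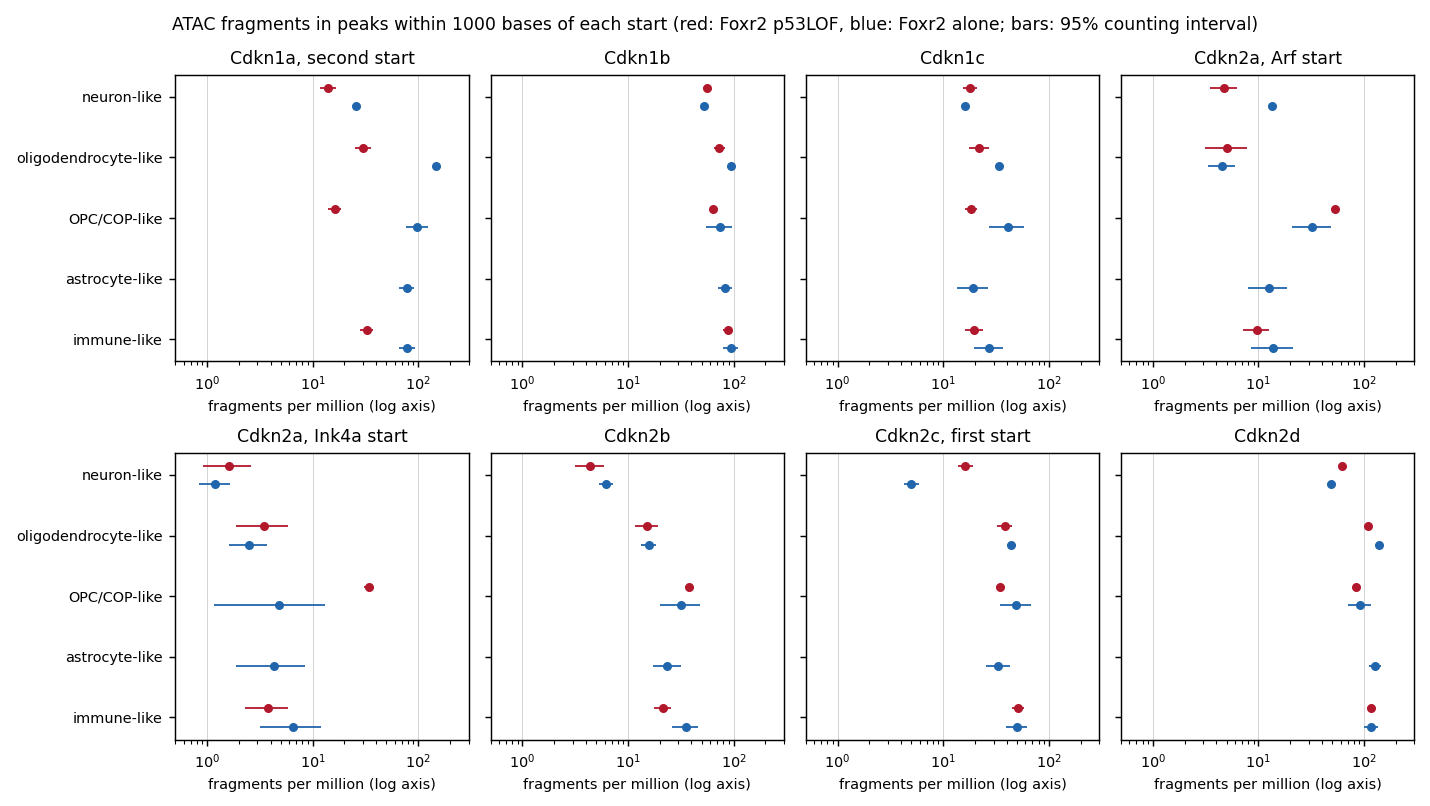
ATAC signal in FPM (x axis, log scale) in peaks within 1000 bases of 8 starts, by class (y axis) and library (red for Foxr2 p53LOF replicate 1, blue for Foxr2 alone replicate 1), with 95% counting intervals. In Foxr2 p53LOF, OPC/COP-like nuclei lie above the other classes at both starts of Cdkn2a, at 33.8 FPM (Ink4a) and 52.7 FPM (Arf).

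Cdkn2b (chr4:89306299-89311039, minus strand), the neighbour of Cdkn2a that encodes p15, was low throughout. OPC/COP-like nuclei of Foxr2 p53LOF had 7.41 CPM (6.29 to 8.68) from 154 UMIs, and Foxr2 alone had 2.26 CPM (0.0572 to 12.6) from 1 UMI, which overlap. Cluster 5 had 10.2 CPM (8.31 to 12.4) and cluster 7 had 4.98 CPM (3.72 to 6.53), a log2 ratio of cluster 7 over cluster 5 of -1.03 (-1.54 to -0.54). Every other class compared had 0.245 to 1.73 CPM in either library, from 33 UMIs or fewer. The 3 UMIs of T cell-like nuclei made 10.5 CPM with an interval of 2.16 to 30.6. Within Foxr2 p53LOF, the level in OPC/COP-like nuclei was 23.5-fold (11.6 to 55.3) that in neuron-like nuclei, and for Cdkn2a the same fold was 9.504 (8.43 to 10.8). Fragments at its start were 37.7 FPM (34.5 to 41.2) and 31.8 (20.1 to 47.6) in OPC/COP-like nuclei of Foxr2 p53LOF and Foxr2 alone, a difference within counting error.

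Cdkn2d (chr9:21288410-21291407, minus strand), which encodes p19 and is kept by postmitotic neurons, was lower in Foxr2 p53LOF in all 4 classes. Neuron-like nuclei had 2.65 CPM (2.05 to 3.36) from 67 UMIs against 16.8 CPM (15.4 to 18.2) from 554 UMIs, a 6.33-fold difference (4.91 to 8.28). Oligodendrocyte-like nuclei had 2.45 CPM (1.18 to 4.51) against 17.8 CPM (13.9 to 22.5), OPC/COP-like 3.32 CPM (2.58 to 4.20) against 20.3 CPM (9.29 to 38.6), and immune-like 4.69 CPM (3.06 to 6.87) against 20.7 CPM (10.7 to 36.2). The log2 ratios lay between -2.86 and -2.14 in the 4 classes. Within cluster 15 the ratio, from 2 and 8 UMIs, was -1.57 (-4.85 to 0.75), within counting error. The immune-like ratio was also within counting error after thinning, at -1.99 (-3.86 to 0.01), and with at least 1000 genes and 1000 peak counts per nucleus, at -1.68 (-3.20 to 0.30). Named classes ranged from 2.45 to 10.5 CPM in Foxr2 p53LOF and from 16.8 to 31.1 CPM in Foxr2 alone, and no neighbours in the order of classes had separate intervals in either one. Fragments at the start of Cdkn2d did not follow the RNA. They were 83.3 and 91.1 FPM in OPC/COP-like nuclei of Foxr2 p53LOF and Foxr2 alone, 117 and 117 in immune-like, 109 and 138 in oligodendrocyte-like, and 61.9 and 48.7 in neuron-like nuclei. Over 28 clusters of both libraries, the genes most like Cdkn2d were Atp5f1 and Uqcrfs1, which encode parts of the mitochondrial respiratory machinery (r = 0.95 and 0.93), and Ccdc85b (r = 0.94). These are Pearson correlations of log2(CPM + 1), given as a description, since clusters share a library and its depth.

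Cdkn1b (chr6:134920401-134925513, plus strand), which encodes p27, differed by less than 2-fold in all 4 classes. OPC/COP-like nuclei had 36.1 CPM (33.6 to 38.8) in Foxr2 p53LOF and 36.1 CPM (20.7 to 58.7) in Foxr2 alone, and the interval of the log2 ratio ran from -0.71 to 0.81. Within cluster 15 the levels were 18.5 CPM and 36.7 CPM, from 6 and 16 UMIs, a log2 ratio of -0.99 (-2.63 to 0.44). Oligodendrocyte-like nuclei had 35.3 CPM (29.8 to 41.6) against 52.1 CPM (45.2 to 59.7), a log2 ratio of -0.56 (-0.88 to -0.25). Immune-like nuclei had 47.1 CPM (41.6 to 53.2) against 29.3 CPM (17.1 to 47.0), and neuron-like 8.65 CPM against 10.2 CPM, both within counting error. With the scaling of edgeR or DESeq2 the immune-like log2 ratio lay outside it, at 0.98 (0.27 to 1.78) and 0.99 (0.29 to 1.79). With the limits on peak counts as deposited, immune-like nuclei had 0.80 (0.06 to 1.66) and neuron-like -0.33 (-0.60 to -0.06), also outside it. The other alternatives stayed within it. In both libraries Cdkn1b was lowest in neuron-like nuclei, whose interval lay below that of the next class in the order. Its start had 52.6 to 94.7 FPM across the classes, lowest in neuron-like nuclei of both libraries.

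**Figure D4:**
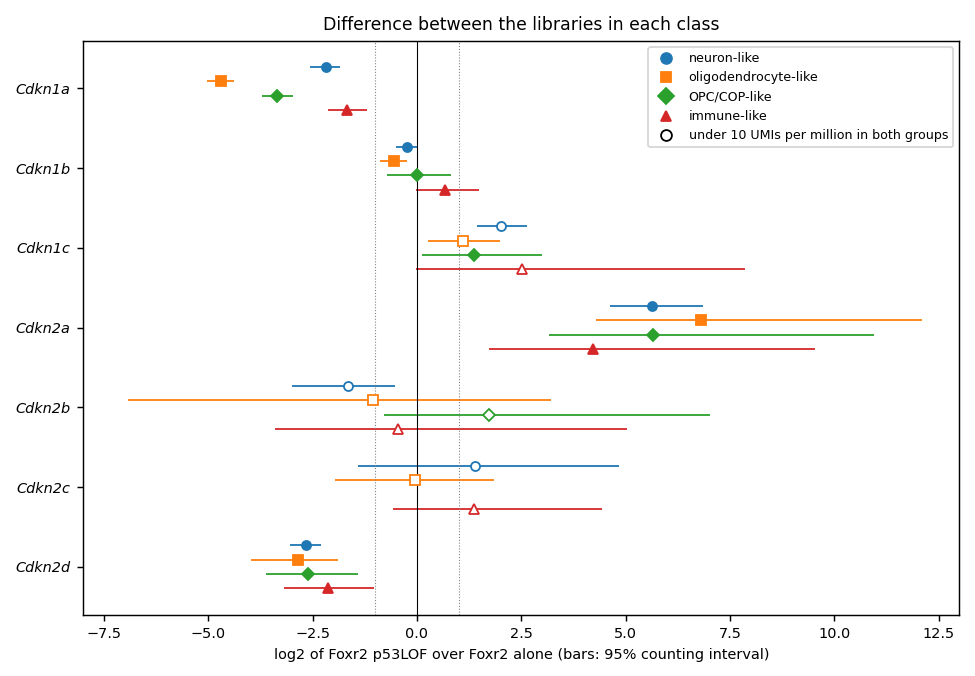
Log2 ratio between the libraries, Foxr2 p53LOF divided by Foxr2 alone (x axis) for each inhibitor (y axis) in 4 classes (symbols), with 95% counting intervals; dotted lines mark a 2-fold difference, and open symbols mark genes under 10 CPM in both libraries. Cdkn1a and Cdkn2d lie left of the line at -1 and Cdkn2a right of the line at 1 in all 4 classes, while Cdkn1b lies between the lines.

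Cdkn1c (chr7:143458339-143461050, minus strand) encodes p57 and is an imprinted gene beside Kcnq1ot1, the long non-coding RNA that silences it in cis. It overlaps the antisense gene Gm44732. OPC/COP-like nuclei of Foxr2 p53LOF had 29.0 CPM (26.7 to 31.4) from 602 UMIs and those of Foxr2 alone 11.3 CPM (3.67 to 26.3) from 5 UMIs, a log2 ratio of 1.36 (0.13 to 2.99). It fell below 2-fold and within counting error within cluster 15, at 0.69 (-1.29 to 2.74), and with the limits on peak counts as deposited, at 0.994 (-0.14 to 2.45). Neuron-like nuclei had 4.03 CPM (3.29 to 4.89) against 0.998 CPM (0.687 to 1.40), and oligodendrocyte-like 9.81 CPM (7.01 to 13.4) against 4.57 CPM (2.71 to 7.23). Immune-like nuclei had 9.93 CPM (7.48 to 12.9) against 1.73 CPM from 1 UMI, and the interval of that log2 ratio reached -0.01. Cluster 7 had 39.4 CPM (35.6 to 43.4) and cluster 5 had 18.5 CPM (15.9 to 21.4), a 2.13-fold difference (1.78 to 2.55). Fragments at its start were fewer in Foxr2 p53LOF in OPC/COP-like nuclei, 18.3 against 40.7 FPM, a log2 ratio of -1.15 (-1.71 to -0.55). Kcnq1ot1 itself measured 836 CPM in OPC/COP-like nuclei of Foxr2 p53LOF against 318 CPM in the other library. It was higher in neuron-like nuclei too, at 1122 against 396 CPM. In oligodendrocyte-like nuclei no listed neighbour of the inhibitor genes passed 2-fold. Over the 28 clusters the genes most like Cdkn1c were Nes, Rhoc and Fabp7 (r = 0.89, 0.87 and 0.83), of which nestin and Fabp7 are marks of neural progenitors.

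Cdkn2c (chr4:109660876-109667189, minus strand) encodes p18. Immune-like nuclei of Foxr2 p53LOF had 8.84 CPM (6.54 to 11.7) from 49 UMIs and T cell-like nuclei 17.5 CPM from 5 UMIs. OPC/COP-like nuclei had 1.69 CPM (1.17 to 2.34), and in Foxr2 alone 0 UMIs, where 3 UMIs would make 6.77 CPM, so no fold was formed. No class of Foxr2 alone had more than 6 UMIs. All 3 libraries had a peak at its first start. The second start (position 109665372) had one in Foxr2 p53LOF replicate 1 and Foxr2 alone replicate 2 and not within 1000 bases in Foxr2 alone replicate 1. Neuron-like nuclei had 16.2 FPM at the first start in Foxr2 p53LOF and 4.99 in Foxr2 alone, a log2 ratio of 1.70 (1.37 to 2.04), against 10.3% of all promoters higher by 2-fold or more.

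Peaks were called in each library on its own. Of the 11 starts of the 7 genes, 9 had a peak within 1000 bases in Foxr2 p53LOF replicate 1, 8 in Foxr2 alone replicate 1 and 9 in Foxr2 alone replicate 2. Over 21630 protein-coding genes, 65.3% to 67.6% had a peak at the first start in these libraries. That share takes 1 start per gene, while the 11 starts include further starts of the same genes, so they are not like for like. The peaks that covered the starts with one in all 3 libraries measured 749 to 934 bases.

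Cycling nuclei were compared with the others within Foxr2 p53LOF. Each nucleus was thinned to 1000 UMIs and counted as cycling if any of them came from Mki67 or Top2a. This gave 243 cycling and 1863 other OPC/COP-like nuclei, and 198 cycling and 1365 other immune-like nuclei. Foxr2 alone had 0 cycling OPC/COP-like or immune-like nuclei and at most 18 in any class, too few to compare.

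Cdkn2c was the inhibitor that differed most with cycling. In immune-like nuclei it measured 34.8 CPM (23.8 to 49.1) in cycling and 3.70 CPM (2.16 to 5.93) in other nuclei, a 9.40-fold difference (5.07 to 18.04), where 4.6% of all genes were higher and 2.93% lower by 2-fold or more. In OPC/COP-like nuclei it measured 5.02 CPM (2.67 to 8.59) against 1.21 CPM (0.758 to 1.83), a log2 ratio of 2.05 (0.94 to 3.11). Both groups there were under 10 CPM, and the counts were 13 and 22 UMIs.

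The other inhibitors differed less than 2-fold where they reached 10 CPM. In OPC/COP-like nuclei Cdkn2a measured 127 CPM (114 to 142) in cycling and 111 CPM (107 to 116) in other nuclei, a log2 ratio of 0.19 (0.02 to 0.36). Cdkn1a measured 20.1 CPM (14.999 to 26.3) against 16.6 CPM (14.7 to 18.5), with an interval of the log2 ratio from -0.18 to 0.71, and Cdkn1b 43.3 CPM against 35.1 CPM, with an interval from -0.00 to 0.59. Cdkn1c measured 37.9 CPM (30.7 to 46.1) against 27.7 CPM (25.4 to 30.3), a log2 ratio of 0.45 (0.12 to 0.76). None of these was lower in cycling nuclei. By cluster, the Cdkn2a difference was 0.47 (0.22 to 0.71) on the log2 scale in cluster 7 and -0.08 (-0.32 to 0.16) in cluster 5. In immune-like nuclei Cdkn1b measured 66.3 CPM (50.7 to 85.2) against 43.1 CPM (37.3 to 49.6), a log2 ratio of 0.62 (0.18 to 1.04).

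**Figure D5:**
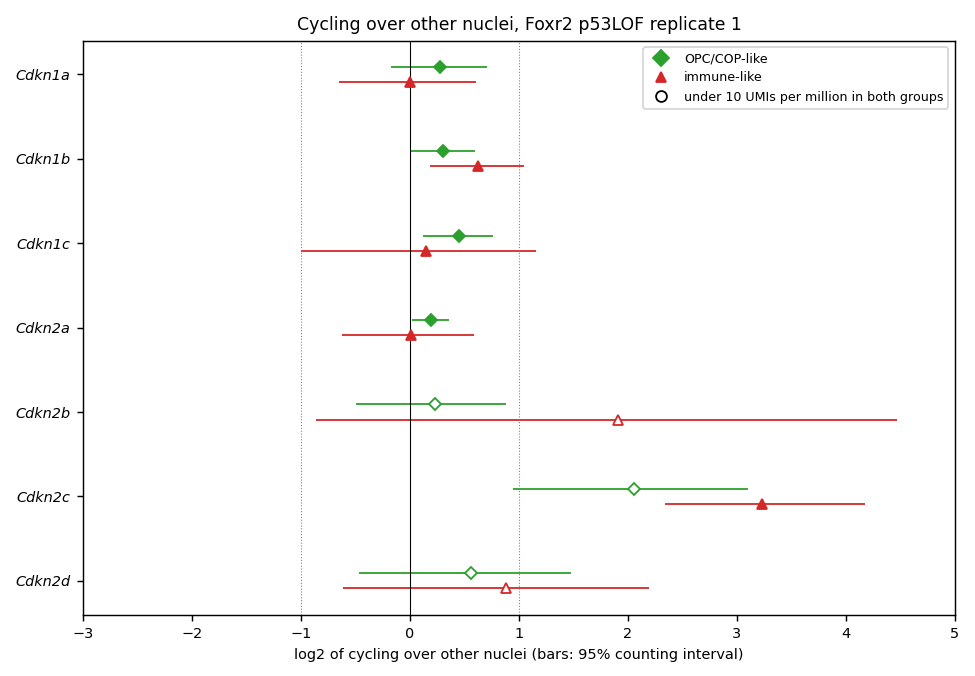
Log2 ratio of cycling over other nuclei of Foxr2 p53LOF replicate 1 (x axis) for each inhibitor (y axis) in OPC/COP-like and immune-like nuclei, with 95% counting intervals; dotted lines mark a 2-fold difference, and open symbols mark genes under 10 CPM in both groups. Cdkn2c lies right of the line at 1 in both classes, at 2.05 and 3.23.

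Nuclei with vector DNA counts were compared with the rest of their class in Foxr2 p53LOF. Among OPC/COP-like nuclei, 598 with a count and 1509 without differed little. Cdkn2a measured 126 CPM and 107 CPM, a log2 ratio of 0.23 (0.10 to 0.35), and Cdkn1b 41.5 CPM and 33.5 CPM, a log2 ratio of 0.31 (0.09 to 0.53). Split instead by a GFP or Akaluc UMI, Cdkn2a had a log2 ratio of 0.50 and Cdkn1b one of -0.04 (-0.25 to 0.17). By vector DNA, Cdkn1a (-0.05, from -0.39 to 0.28) and Cdkn1c (-0.00, from -0.25 to 0.25) differed by less than counting error, but by a GFP or Akaluc UMI Cdkn1c was lower, at -0.42 (-0.66 to -0.19). Of all genes, 0.432% differed by 2-fold or more in either direction, so the split hardly separated this class. Nuclei without a vector count may still carry the vector, and those with a count were deeper (median 9632 against 7788 UMIs). By cluster, vector DNA gave Cdkn1a a log2 ratio of 0.97 (0.15 to 1.80) in cluster 5, with under 10 CPM in both groups. In cluster 7 the Cdkn1a ratio was -0.22 (-0.60 to 0.15). Over glia-like nuclei together (610 and 3028), Cdkn2a had a log2 ratio of 0.47 (0.35 to 0.59), with OPC/COP-like nuclei making up 598 of the 610.

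The partners of the inhibitors, a list of 58 cyclins, kinases, Rb family members, E2F factors, p53 targets, Polycomb and FOXO genes and neighbours of the inhibitor genes, were read beside them. In OPC/COP-like nuclei, 43 of the 58 reached 10 CPM in 1 library, of which 16 were higher and 6 lower by 2-fold or more in Foxr2 p53LOF, against 21.7% higher and 23.5% lower of all genes, with a median log2 ratio of 0.67 against 0.03 over all genes. The D cyclin Ccnd2 measured 173 CPM against 15.8 CPM and Ccnd1 202 CPM against 42.9 CPM. Their kinase Cdk6, the target of the Ink4 proteins, measured 97.6 CPM against 11.3 CPM from 5 UMIs, and Rbl1, which encodes the Rb relative p107, 62.9 CPM against 2.26 CPM from 1 UMI. E2f7 was at 27.1 CPM against 0 UMIs, at least 4.001-fold higher with 3 UMIs over the class as the floor. Of the 5 Polycomb genes, Bmi1 (29.3 CPM against 11.3 CPM), Ezh2 (189 CPM against 61.0 CPM) and Eed (62.9 CPM against 29.4 CPM) were higher, Suz12 was below 2-fold, and Cbx7 was lower, with 8.86 CPM against 42.9 CPM. Within cluster 15, which both libraries share, 37 of the 58 reached 10 CPM, with 7 higher and 6 lower, against 11.1% and 22% of all genes. The median log2 ratio was -0.27 against -0.21 over all genes. Some of these calls were within counting error, such as Foxo4 (4 and 1 UMIs) and E2f5 (3 and 12 UMIs). In that cluster Cdk6 measured 3.08 CPM against 11.5 CPM, from 1 and 5 UMIs, Eed 24.7 CPM against 29.8 CPM and Cbx7 37.0 CPM against 41.3 CPM, all within counting error, while Ccnd1 was higher at 114 CPM against 41.3 CPM. Rbl1 was higher there too, at 24.7 CPM from 8 UMIs against 0 UMIs. By group, 2 of 3 D cyclins and 1 of 5 Polycomb genes were higher in that cluster.

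Of the 17 other p53 targets, 11 reached 10 CPM in oligodendrocyte-like nuclei, and 7 of these were lower and 1 higher by 2-fold or more in Foxr2 p53LOF, against 20.6% lower and 13.2% higher of all genes, with a median log2 ratio of -1.45 against -0.06 over all genes. Plk2 measured 4.17 CPM against 41.9 CPM, Sesn1 84.2 CPM against 293 CPM and Btg2 9.57 CPM against 41.9 CPM. Among the same genes in OPC/COP-like nuclei 4 were lower and 1 higher of 11 (median -0.72), against 23.5% and 21.7% of all genes. Within cluster 15, 2 were lower and 1 higher of 10 (median -0.53), against 22% and 11.1% of all genes. The higher one, Eda2r (4 and 1 UMIs), and 1 of the lower, Btg2 (1 and 5 UMIs), were within counting error. In immune-like nuclei 3 were lower and 2 higher of 11 (median -0.80), close to the 23.3% and 15.5% of all genes. In neuron-like nuclei 2 were lower and 1 higher of 7 (median -0.61), against 19% and 13.4%. Among the neuron-like genes Plk2 measured 13.4 CPM against 132 CPM and Bax 8.73 CPM against 23.1 CPM. Mdm2, the p53 target that degrades p53, was higher by 2-fold or more in immune-like nuclei, with 189 CPM against 70.8 CPM. It was below 2-fold in the other classes, with 190 CPM against 104 CPM in oligodendrocyte-like, 147 CPM against 79.0 CPM in OPC/COP-like and 64.4 CPM against 65.7 CPM in neuron-like nuclei. As for Cdkn1a, an effect of p53 loss on these genes cannot be told apart from other differences between the libraries.

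In the cycling contrast of OPC/COP-like nuclei, 47 of 58 list genes reached 10 CPM, and 14 were higher and 0 lower by 2-fold or more, against 4.42% higher and 2.65% lower of all genes. The largest were the B cyclin Ccnb1 with 45.2 CPM in cycling and 5.01 CPM in other nuclei, Cdk1 with 70.3 CPM and 9.68 CPM, and E2f8 with 25.5 CPM and 3.08 CPM. No D cyclin passed 2-fold. In immune-like nuclei 12 of 47 were higher, led by Ccna2 with 35.9 CPM and 3.27 CPM, and 1 was lower, against 4.6% higher and 2.93% lower of all genes. Between clusters 7 and 5, Ccnd2 was lower in cluster 7 with 81.2 CPM against 274 CPM. Of 42 list genes, 1 was higher and 4 were lower by 2-fold or more, against 9.4% higher and 9.85% lower of all genes. Of 10 p53 targets, 1 was higher and 2 were lower, against the same shares of all genes. Phlda3 was higher with 16.4 CPM against 4.10 CPM, and Btg2 (36.7 CPM against 90.5 CPM) and Sesn1 (38.1 CPM against 80.9 CPM) were lower.

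Likeness over the 28 clusters set the members apart. The genes most like Cdkn2a were the interferon-inducible Gbp2, Gbp6 and Ifi47 (r = 0.97, 0.96 and 0.96). Cdkn1a was most like Pnpla2, Fth1 and Ptpmt1 (r = 0.84 for each), where Fth1 encodes the ferritin heavy chain. Cdkn1b was most like Prkd3, Acadl and Clic4 (r = 0.92, 0.92 and 0.91), Cdkn2b like Cdk4, Lif and Serbp1 (r = 0.89, 0.84 and 0.84) and Cdkn2c like Slc25a45, Tep1 and Sp3 (r = 0.94, 0.90 and 0.88). Among the members themselves the highest value was that of Cdkn1c with Cdkn2a (r = 0.82) and the lowest that of Cdkn2a with Cdkn2d (r = -0.58).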

How the data were processed

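Single-nucleus Multiome libraries of 3 tissue samples were made, and the values analysed were deposited as raw counts: UMIs per gene and transposition counts per peak, made by the authors with Cell Ranger ARC 2.0.0 on mm10 per the labels. Peaks were called in each library on its own. Counts of Foxr2 alone replicate 2 were not analysed here, and its peak list was used. The 7 inhibitors and the gene lists were chosen with earlier results of these data known.

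Barcodes with at least 400 genes, at least 400 fragments in peaks (peak counts divided by 2) at most 5% mitochondrial UMIs and values under the study's upper limits on genes, UMIs and fragments were kept, and doublets were removed with Scrublet in scanpy 1.11.5 (299 and 529 called, 3.43% and 5.97%). The study's limits on TSS enrichment and nucleosome signal were not applied. The nuclei were clustered (2000 variable genes without the inhibitors and lists, 30 components, 20 neighbours, Leiden resolution 0.5), and clusters were named from marker lists with thresholds set after the data were seen. OPC and COP clusters were joined into 1 class.

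UMIs were summed per class and library and given per 1000000 UMIs (CPM). Intervals are exact 95% Poisson, binomial or ratio-of-counts intervals and cover counting error only. A value of 0 was set against 3 counts over the class. Numbers of UMIs per library were 60676079 (Foxr2 p53LOF) and 39655628 (Foxr2 alone) in kept nuclei. With counts of 1 library per genotype analysed, no test was made. Cycling nuclei were called after thinning to 1000 UMIs. Pathway genes were named by rule if they had at least 10 CPM in 1 group and at least a 2-fold difference. Up to 8 per comparison were taken, by the log2 ratio of CPM plus 1. Bmi1, Ezh2, Eed and Suz12 in OPC/COP-like nuclei were also named, outside this rule. So were Ccnd1, Eed and Cbx7 in the OPC/COP-like cluster that both libraries share. Kcnq1ot1 in OPC/COP-like nuclei and Mdm2 were named after their values were seen. Likeness used the 3 genes with the highest Pearson correlation over 28 clusters. Scaling alternatives used edgeR 4.0.16 and DESeq2 1.42.0 on the deposited counts, and the ratio step was tested on simulated counts. Promoter sequences came from RefSeq (GRCm38.p6), with 9 entries for 6 of the 7 genes.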

Additional observations from a re-analysis of the deposited data

How the results depend on the processing

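Of 253 alternative values of 61 log2 ratios, 225 stayed within the counting interval of the reported value and 28 did not. The sign changed in 21, in 0 of them for a ratio past 2-fold. No paired analysis was possible because counts of 1 library per genotype were analysed and no test was made. Log2 ratios of Foxr2 p53LOF over Foxr2 alone that moved under thinning to 1000 UMIs were those of Cdkn1a in neuron-like (-1.66), OPC/COP-like (-3.79) and immune-like nuclei (-0.66), Cdkn1b (0.0090) and Cdkn2d (-3.44) in neuron-like nuclei, and Cdkn2a in oligodendrocyte-like nuclei (4.22, against the limit of 3 counts). With doublets kept, Cdkn1a in immune-like nuclei was -2.53 and the vector ratio of Cdkn2a in glia-like nuclei 0.59. With at least 1000 genes and 1000 peak counts, Cdkn2a in immune-like nuclei was 1.32, again against 3 counts, and oligodendrocyte-like nuclei gave no value because that class was not named in Foxr2 alone. In the OPC/COP-like cluster that both libraries share, an alternative chosen after seeing the data, Cdkn1a was -3.82, Cdkn1b -0.99 (-2.63 to 0.44), Cdkn1c 0.69 (-1.29 to 2.74), Cdkn2a 3.60 (0.75 to 9.05) and Cdkn2d -1.57 (-4.85 to 0.75). For Cdkn1c and Cdkn2d this is within counting error, as it was for Cdkn1c with the limits on peak counts as deposited and for Cdkn2d in immune-like nuclei after thinning or with at least 1000 genes and 1000 peak counts. With vector nuclei chosen by a GFP or Akaluc UMI, the OPC/COP-like log2 ratios were -0.041 for Cdkn1b, -0.42 for Cdkn1c and 0.50 for Cdkn2a, and the glia-like ones -0.070, -0.23 and 0.69. At the second start of Cdkn1a, the log2 ratios with a window of 250 bases were -0.38 in neuron-like, -0.99 in oligodendrocyte-like, -1.62 in OPC/COP-like and -0.30 in immune-like nuclei, and with 2500 bases -0.13, -1.63 and -1.40 in the first 3 of these. Scaled to fragments in shared peaks, the neuron-like ratios were -1.17 for Cdkn1a, -0.23 for Cdkn1b, -0.14 for Cdkn1c and 0.025 for Cdkn2d. The cause of these moves was not tested, apart from the window of 250 bases, which leaves out the further Cdkn1a peak of Foxr2 alone replicate 1.

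Without a minimum level, the genes past 2-fold (higher and lower in Foxr2 p53LOF) numbered 2322 and 3227 in place of 1419 and 2013 in neuron-like, 2152 and 3393 in place of 1284 and 1999 in oligodendrocyte-like, 4375 and 4442 in place of 2488 and 2701 in OPC/COP-like, and 3150 and 4320 in place of 1719 and 2588 in immune-like nuclei. Between cycling and other nuclei they numbered 643 lower in place of 275 in OPC/COP-like, and 1238 higher and 1348 lower in place of 458 and 292 in immune-like nuclei. Between vector and other nuclei they numbered 27 higher and 94 lower in place of 6 and 38 in OPC/COP-like, and 63 higher in place of 27 in glia-like nuclei. Depth limits the low genes in the OPC/COP-like (442846 UMIs) and immune-like nuclei (579342 UMIs) of Foxr2 alone, which held at most 1 UMI of Cdkn2a, 1 of Cdkn2b, 2 of Cdkn2c and 5 of Cdkn1c.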
